A study of Mus musculus with 4 samples.

Results

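The replication-dependent histone genes encode the bulk of the histones that package newly made DNA. They were taken here as every gene whose symbol begins with *Hist1h*, *Hist2h*, *Hist3h* or *Hist4h* in the gene list of the series, which gave 67 of 32288 genes. Of these, 6 encode the linker histone H1, 18 the core histone H2a, 18 H2b, 12 H3 and 13 H4. *Hist1* held 54 members on chromosome 13, *Hist2* 10 on chromosome 3, *Hist3* 2 on chromosome 11 and *Hist4* 1 on chromosome 6. On GRCm38, *Hist1* fell into 4 stretches (chr13:21715763-21837530 with 18 members, chr13:22035164-22043676 with 5, chr13:23531050-23764406 with 29 and chr13:23933773-23934851 with 2), and *Hist2* lay at chr3:96219865-96270132.

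As background, these genes are switched on as a cell enters S phase, when the cyclin E-CDK2 target NPAT activates their promoters, and their messages are degraded when DNA synthesis ends. Most of the messages end in a short stem-loop bound by SLBP rather than in a poly(A) tail, and some members also make polyadenylated messages. p21, encoded by *Cdkn1a*, inhibits cyclin-dependent kinases and holds cells before S phase. In the growth plate, proliferative chondrocytes divide in columns and hypertrophic chondrocytes have left the cycle.

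The cells came from E14.5 mouse hindlimbs, described as femur and tibia in the labels and as the entire limb in the study's text, and muscle-, tenocyte- and immune-like cells were among them. *Pan-Cart-p21MOE* embryos carried *Col2a1-rtTA*, which is active in cartilage, *TigreTRE-p21*, *Gli1-CreER* and *R26LSL-tdT*, whereas control embryos carried the same alleles without *Col2a1-rtTA*. The study describes the overexpression as mosaic, with p21 in most but not all chondrocytes at E14.5. *Pan-Cart-p21MOE* below therefore names the embryo a cell came from, and such chondrocytes mix cells with and without p21. All embryos were exposed to doxycycline (1 mg/ml) from E12.5, which turns on p21 only together with rtTA, and to tamoxifen (120 µg/g) at E13.5, which labels *Gli1*-lineage cells with tdTomato. The tdT+ cells (libraries S1 and S3) and the tdT- cells (S2 and S4) of 2 collections were sorted, and both conditions were run in the same library as opposite sexes, so that sex gave the condition of each cell. Males were *Pan-Cart-p21MOE* in collection 1 (S1 and S2) and controls in collection 2 (S3 and S4). Each condition therefore has 4 values, from 2 collections split into sorted fractions, and the fractions of a collection and condition, called a pool below, share embryos. For the female *Pan-Cart-p21MOE* cells of S3 and S4 the study's text gives a single embryo in one place and pooled embryos in another, so these values may rest on 1 animal. The tests treat the 4 values as independent, so p-values measure the spread between these samples.

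Barcodes held whole UMI counts, 1 UMI standing for 1 captured molecule, and the 4 libraries had 11945062 to 39435830 UMIs. After filters on depth, sex and doublets, 2735 cells were kept, with a median of 16465 to 26919 UMIs per library. Before the sex filter, 706, 772, 1483 and 3912 barcodes of S1 to S4 had passed, and 208, 374, 495 and 2827 of them had no sex call. Kept were 232, 98, 652 and 780 *Pan-Cart-p21MOE* and 227, 259, 275 and 212 control cells. Whether this loss fell evenly on both conditions was not tested. Clusters were built without histone, cell-cycle, sex-linked and transgene counts, and a cluster was called X-like from its markers. Chondrocytes (resting-, proliferative- and hypertrophic-like clusters) numbered 34 to 248 per library and condition, and cells outside cartilage 57 to 389. *Col2a1* held 6294 to 7507 CPM (UMIs per 1000000) in the chondrocyte sums and 533 to 1034 outside. Cells outside cartilage included unnamed clusters without cartilage markers, whereas unnamed clusters near cartilage or mostly of 1 library were left out of both classes. The left-out cells numbered 27, 7, 161 and 143 in *Pan-Cart-p21MOE* and 46, 90, 31 and 19 in control of S1 to S4. They held 1249, 763, 1050 and 1571 CPM of the histone genes against 1433, 2445, 1330 and 1986 CPM in control. Some left-out clusters held *Pan-Cart-p21MOE* cells only. Among them was the cluster highest in histone genes, with 12 cells of S4 at 5278 CPM. Between libraries, 2 barcodes of kept cells were shared, and hypertrophic-, tenocyte- and immune-like cells came mostly from S4. UMI counts were not divided by gene length, since the 3′ chemistry counts molecules at their 3′ end. How evenly it captured messages with and without a poly(A) tail was not tested. All levels and shares below are therefore those of captured molecules.

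The stem-loop could be read in most of the annotated messages. A stem of 6 base pairs with a loop of 4 bases was found after the stop codon in 45 of the 67 annotated transcripts (GENCODE, GRCm38), 22 to 59 bases behind it, in 8 forms. The most frequent form was shared by 25 members of the H1, H2a, H2b and H3 classes, and another form by 7 H4 genes. The examples show 5 of the forms in members described below or, for *Hist1h4j*, in an H4 gene with another stem, on the strand of the gene, with the stem-loop in capitals.
*Hist1h2ae* (chr13:23570663-23570688, minus strand): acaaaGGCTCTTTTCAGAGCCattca
*Hist1h4d* (chr13:23581945-23581970, plus strand): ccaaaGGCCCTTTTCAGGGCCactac
*Hist1h3e* (chr13:23561898-23561923, minus strand): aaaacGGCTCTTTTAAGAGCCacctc
*Hist2h2ac* (chr3:96220413-96220438, minus strand): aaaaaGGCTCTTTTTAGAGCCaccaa
*Hist1h4j* (chr13:21735432-21735457, plus strand): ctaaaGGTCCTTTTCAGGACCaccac
The annotated message ran on for at least 100 bases behind the loop in 23 of the 45 members, and 13 annotated transcripts ended at the stop codon, so no loop could be seen in them.

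H2a and H2b genes often sit head to head. In 12 pairs the start sites lay 176 to 306 bases apart, and the closest pair was *Hist1h2ae* and *Hist1h2bg*. Promoters of 61 members were found in RefSeq (GRCm38.p6, 250 bases before to 50 after the start). On either strand, CCAAT was present in 85.2% of these and in 37.4% of all 32851 promoters, TATAAA in 55.7% and 13.6%, and the octamer ATTTGCAT in 21.3% and 1.74%. The octamer was found in 38.9% of H2a and 37.5% of H2b promoters and in no H1, H3 or H4 promoter, while CCAAT was in every H1, H2a, H2b and H3 promoter matched and in 25.0% of those of H4. Such a match describes the letters and is no evidence of binding. The 120 bases before the start are shown for *Hist1h1b*, which had the lowest p-value in chondrocytes, and for *Hist1h2bg*, which had the lowest fold change, with motif matches on either strand in capitals. The *Hist1h2bg* stretch is also upstream sequence of *Hist1h2ae*.
*Hist1h1b* (chr13:21780626-21780745, minus strand): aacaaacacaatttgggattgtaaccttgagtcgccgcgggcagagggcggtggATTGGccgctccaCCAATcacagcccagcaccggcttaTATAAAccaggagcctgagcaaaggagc
*Hist1h2bg* (chr13:23571280-23571399, plus strand): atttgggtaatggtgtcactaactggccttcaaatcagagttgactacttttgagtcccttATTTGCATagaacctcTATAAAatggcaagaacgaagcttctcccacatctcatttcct

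A small number of members carried most of the histone UMIs. The kept cells held 93745 UMIs of the 67 genes, of which H2a genes made up 56.2%, H1 14.1%, H2b 13.2%, H4 9.88% and H3 6.58%. *Hist1h2ap* alone accounted for 24.5% and *Hist1h2ae* for 21.1%, followed by *Hist1h1b* with 8.35%, *Hist1h2bc* with 6.13% and *Hist1h4d* with 3.82%, so that 5 genes held 63.9% of the total. By cluster, *Hist1* held 94.6%, *Hist2* 2.50%, *Hist3* 2.40% and *Hist4* 0.506%. Of the members typical of testis, *Hist1h1t* had 58 UMIs in kept cells, and *Hist1h2aa* and *Hist1h2ba* had 0. *Hist1h2bq* also had 0, which left 64 members with at least 1 UMI.

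Near-identical copies limit how far single members can be told apart. In 28 members over 50% of all 100-base windows of the transcript also occur in another member, and in *Hist2h2aa1*, *Hist2h2aa2*, *Hist2h3c1*, *Hist2h3b* and *Hist2h2bb* every window does. *Hist1h2ap* shares 92.2% of its windows, *Hist1h2ae* 30.7%, and *Hist1h1b*, *Hist1h1a* and *Hist1h4d* share none. The annotated span of *Hist1h2be* (chr13:23583670-23621124) overlaps *Hist1h1e* (chr13:23620629-23622558) on the same strand. Values of the sharing or overlapping members are therefore uncertain as to which copy was counted.

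The targeted gene was examined as a check of the condition. The WPRE, an RNA-stabilising element, is part of both the p21 and the tdTomato transgene, so its reads cannot be assigned to either, and in the tdT+ libraries S1 and S3 the value mixes both. It was measured at 1069, 1083, 1889 and 1321 CPM in *Pan-Cart-p21MOE* chondrocytes of S1 to S4 and at 581, 101, 473 and 59.7 CPM in control chondrocytes. The level was higher in *Pan-Cart-p21MOE* cells by 2.62 ± 0.42 (log2, SE; adjusted p = 0.0166 by the quasi-likelihood test of edgeR, adjusted after Benjamini and Hochberg, as for all tests below). *Cdkn1a* itself was at 57.1, 66.2, 67.5 and 65.7 CPM against 23.8, 57.7, 51.3 and 94.9 CPM, and control exceeded *Pan-Cart-p21MOE* in S4 (log2 fold change 0.18 ± 0.25, adjusted p = 0.878). In the tdT- libraries S2 and S4, sorted for cells without tdTomato, the WPRE separated the conditions most widely. The *Cdkn1a* message did not separate them in the chondrocytes kept for testing. The study states that reads of both transgenes map mostly to the WPRE, so these counts may miss the transgene. Of the clusters left out of both classes, a cluster of *Pan-Cart-p21MOE* cells only, with 35 cells of S4, had *Cdkn1a* as its leading gene.

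In chondrocytes, summed histone message was lower in *Pan-Cart-p21MOE* than in control cells of every library. The 67 members held 1397, 1232, 1037 and 720 CPM in *Pan-Cart-p21MOE* chondrocytes of S1 to S4 and 3446, 2351, 2203 and 2575 CPM in control chondrocytes. The means were 1096 ± 291 and 2644 ± 556 CPM (SD, n = 4 each), a ratio of 0.415, and the highest *Pan-Cart-p21MOE* value lay below the lowest control value. In such sums, fewer cells in S phase and less histone message per cell cannot be told apart.

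**Figure D1:**
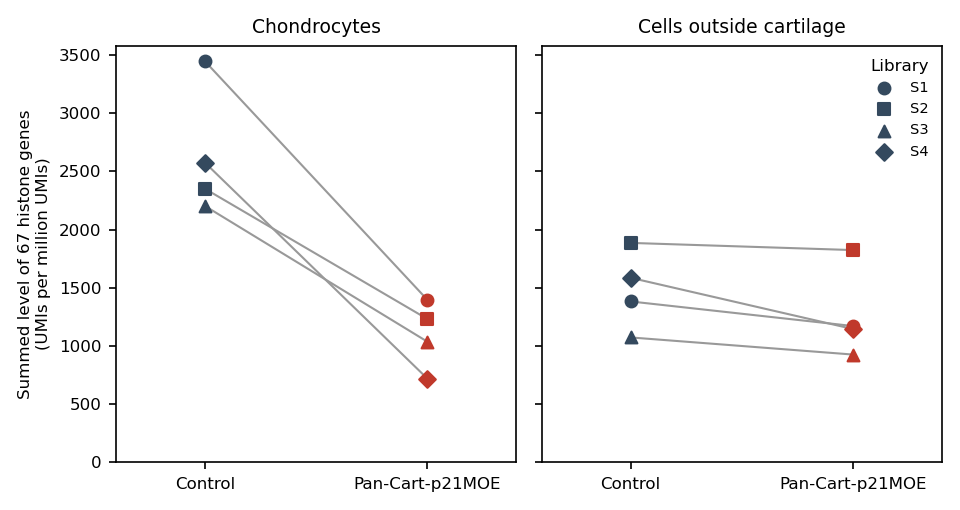
Summed level of the 67 histone genes (CPM, linear axis from 0) in control and Pan-Cart-p21MOE cells of each library, joined by lines, in chondrocytes and in cells outside cartilage. In chondrocytes the Pan-Cart-p21MOE values (720 to 1397) lie below all control values (2203 to 3446), while outside cartilage the ranges overlap (927 to 1825 and 1074 to 1886).

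All 5 classes followed this order in chondrocytes. H1 summed to 117 ± 16 CPM in *Pan-Cart-p21MOE* and 334 ± 97.4 CPM in control chondrocytes (ratio 0.351), H3 to 59.3 ± 21.6 and 169 ± 75.1 CPM (0.351), and H2a to 653 ± 263 and 1614 ± 338 CPM (0.405). H4 summed to 86.7 ± 24.5 and 205 ± 59.5 CPM (0.423). As a sum, H2b stood closest to control, with 180 ± 59.7 and 321 ± 86.4 CPM (0.560). It was the class whose *Pan-Cart-p21MOE* range (129 to 252 CPM) reached into the control range (238 to 440 CPM). Much of the H2b sum came from 1 gene, *Hist1h2bc*, at 131 ± 67.7 and 164 ± 51.7 CPM (scaled by TMM). The 9 tested H2b members had a median log2 fold change of -1.62. By cluster the ratio was 0.419 for *Hist1*, 0.257 for *Hist2*, 0.569 for *Hist3* and 0.273 for *Hist4*, and *Hist3* and *Hist4* were lower in 3 of 4 libraries.

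**Figure D2:**
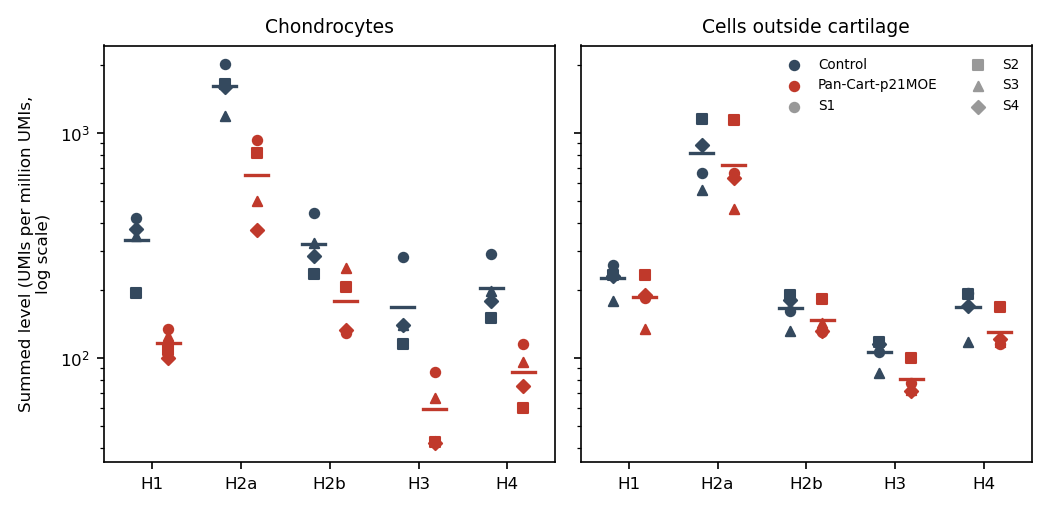
Summed level of each histone class (CPM, log axis) by library (marker shape) and condition (colour), with the mean of 4 libraries as a bar, in chondrocytes and outside cartilage. The classes are apart by condition in chondrocytes, with an overlap for H2b, and lie close together outside cartilage.

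Of the 67 members, 37 had enough UMIs in chondrocytes to be tested, 24 fell and none rose at an adjusted p of 0.05. Among all 11017 genes tested, 0.49% fell and 0.163% rose. The 24 members were among 54 genes in all that fell. The median log2 fold change of the 37 was -1.59 and that of all genes -0.00050. All 37 were negative, and 27 had *Pan-Cart-p21MOE* values entirely below the control values, against 3.31% of all genes. The 30 members not tested had at most 161 UMIs over all chondrocytes. A member passes such a filter more readily when it is high in 1 of the groups compared. These counts, and those of the tests below, therefore describe the tested members only.

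All 5 tested H1 genes fell. *Hist1h1b* had the lowest adjusted p of any member, with 74.6, 64.3, 76.4 and 53.6 CPM (scaled by TMM, as all values of single genes below) in *Pan-Cart-p21MOE* chondrocytes of S1 to S4 and 210, 113, 239 and 248 CPM in controls. The means were 67.2 ± 10.5 and 203 ± 61.8 CPM (fitted log2 fold change -1.62 ± 0.20, adjusted p = 0.0041). *Hist1h1a* fell from 47.8 to 18.3 CPM, *Hist1h1e* from 41.8 to 13.8, *Hist1h1d* from 21.6 to 6.07 and *Hist1h1c* from 27.2 to 9.63, with log2 fold changes of -1.44, -1.52, -1.93 and -1.31 (adjusted p = 0.0149, 0.0154, 0.0339 and 0.0471 by edgeR). In each of the 5 the groups did not overlap. *Hist1h1t*, the testis-type H1, was not tested.

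H2a genes, the most abundant class, fell in 7 of 11 cases. *Hist1h2ae* was at 377, 232, 200 and 135 CPM in *Pan-Cart-p21MOE* and 713, 499, 553 and 661 CPM in control chondrocytes (log2 fold change -1.43 ± 0.22, adjusted p = 0.0149 by edgeR), with no overlap. *Hist1h2ap*, the member with the most UMIs, was at 411, 474, 192 and 164 against 923, 974, 448 and 716 CPM. It was lower in each library, but S2 of *Pan-Cart-p21MOE* exceeded S3 of control, and it did not pass the threshold (-1.33 ± 0.32, adjusted p = 0.0951). *Hist1h2ab* fell from 97.6 ± 45.6 to 33.2 ± 13.8 CPM (-1.73 ± 0.30, adjusted p = 0.0257 by edgeR). The lowest value of the class belonged to *Hist2h2ac*, which was at 3.64, 2.52, 2.69 and 5.16 CPM against 30.8, 6.70, 23.1 and 26.3 CPM (-2.45 ± 0.43, adjusted p = 0.0257). *Hist1h2an*, *Hist1h2ai*, *Hist1h2ak* and *Hist1h2af* also fell, with log2 fold changes of -2.14, -1.76, -1.70 and -1.35. *Hist1h2ac*, *Hist1h2ag* and *Hist3h2a* did not pass, with log2 fold changes of -0.80, -0.83 and -0.64.

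Among H2b genes 6 of 9 fell. *Hist1h2bc*, the H2b gene with the most UMIs, was at 61.8, 178, 199 and 84.2 CPM in *Pan-Cart-p21MOE* and 234, 110, 154 and 158 CPM in control chondrocytes. It was lower in S1 and S4 and higher in S2 and S3 (log2 fold change -0.34 ± 0.31, adjusted p = 0.771 by edgeR), the smallest change of the 37 members. By contrast, *Hist1h2bg* was at 1.82, 3.78, 2.90 and 1.39 CPM against 17.3, 14.4, 11.2 and 6.83 CPM, the lowest fold change of all (-2.49 ± 0.38, adjusted p = 0.0149). *Hist1h2bn*, *Hist1h2bm*, *Hist1h2bb*, *Hist2h2bb* and *Hist1h2bj* fell too, with log2 fold changes of -1.81, -1.72, -1.67, -1.62 and -1.58. *Hist1h2be*, with 0 UMIs in *Pan-Cart-p21MOE* cells of S2 and 7.88 to 9.10 CPM in the others against 13.9 to 26.4 CPM, did not pass (-1.46, adjusted p = 0.0939), nor did *Hist1h2bh* (-1.59, adjusted p = 0.0636).

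H3 genes fell in 5 of 6 cases. *Hist1h3c*, the most abundant, was at 32.7, 8.82, 18.0 and 10.3 CPM in *Pan-Cart-p21MOE* and 90.1, 27.8, 52.1 and 41.3 CPM in control chondrocytes (-1.67 ± 0.24, adjusted p = 0.0106 by edgeR). *Hist1h3e* was at 13.9, 10.1, 13.2 and 9.06 against 63.1, 27.3, 31.6 and 32.2 CPM (-1.74 ± 0.22, adjusted p = 0.0050). *Hist1h3e* did not overlap between conditions, whereas *Hist1h3c* overlapped through S1 of *Pan-Cart-p21MOE* and S2 of control. *Hist1h3i*, *Hist1h3a* and *Hist1h3f* had log2 fold changes of -1.62, -1.92 and -1.93 and fell as well. *Hist1h3d* was the exception (-1.02, adjusted p = 0.267).

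H4 genes passed the test in 1 of 6 cases. *Hist1h4d*, the H4 gene with the most UMIs, which shares no window with another member, was at 50.9, 27.7, 37.2 and 25.9 CPM in *Pan-Cart-p21MOE* and 138, 53.2, 97.6 and 85.5 CPM in control chondrocytes (-1.43 ± 0.18, adjusted p = 0.0050 by edgeR). *Hist1h4i* was at 21.2, 5.04, 28.1 and 16.2 against 28.5, 35.4, 27.7 and 28.0 CPM (-0.68 ± 0.27, adjusted p = 0.375). *Hist1h4c* (-0.96, adjusted p = 0.142), *Hist1h4h* (-1.22, adjusted p = 0.083), *Hist1h4n* (-1.28, adjusted p = 0.284) and *Hist4h4* (-1.62, adjusted p = 0.148) had negative values that did not pass. Whether H4 differed from the other classes was not tested.

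**Figure D3:**
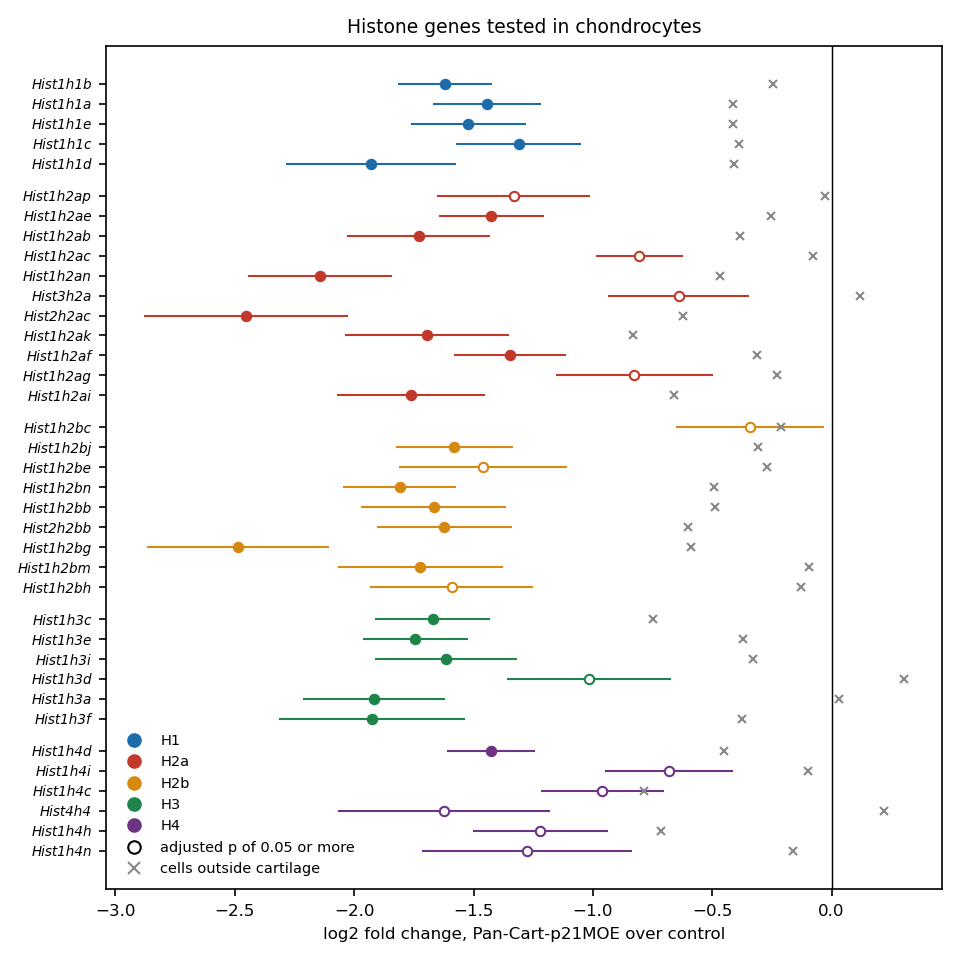
Log2 fold change of Pan-Cart-p21MOE over control for the 37 members tested in chondrocytes, ordered by class and mean level, with bars of 1 SE, filled where the adjusted p was under 0.05. Grey crosses give the value of the same member outside cartilage, and every circle lies left of 0, from -2.49 (Hist1h2bg) to -0.34 (Hist1h2bc).

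The number of calls depended on which cells entered, while the log2 fold changes stayed negative in every leave-out except that of *Hist1h2bc* without S1 (0.03). The number was 7, 15, 4 and 10 when S1, S2, S3 or S4 was left out, 7 without control S1, 14 without *Pan-Cart-p21MOE* S2, 4 without *Pan-Cart-p21MOE* S3, 9 without *Pan-Cart-p21MOE* S4 and 11 without control S4, and the medians over all leave-outs lay between -1.66 and -1.43. The 4 calls were *Hist1h2an*, *Hist1h3c*, *Hist1h3e* and *Hist1h4d* without S3, and *Hist1h1b*, *Hist1h2an*, *Hist1h3e* and *Hist1h4d* without *Pan-Cart-p21MOE* S3. When the fractions of a pool were summed, giving 2 values per condition, 8 of 52 tested members fell (median -1.49).

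The other genes of the histone pathway gave no calls. Of 16 tested genes for histone transcription and 3′ processing, none passed in chondrocytes (median -0.13), with *Slbp*, the stem-loop binding protein, at -0.17 (adjusted p = 0.566) and *Npat* at -0.01 (adjusted p = 0.999). None of 17 histone chaperone genes passed either (median -0.02), among them *Asf1b* at -0.38 and *Nasp* at 0.03. Of 11 replacement histone genes, which are made outside S phase, none passed (median -0.10). *H3f3b* was at -0.36 (adjusted p = 0.0562) and *H1f0* at -0.70 (adjusted p = 0.116).

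Other genes of the cell cycle gave few calls. None of 44 S-phase genes passed (median -0.24, 38 negative). Of 53 G2 and mitosis genes, *Ndc80*, *Kif11* and *Hjurp* fell, with log2 fold changes of -1.44, -0.83 and -0.80, and none rose (median -0.47), while *Top2a* and *Mki67* were at -0.72 and -1.15 (adjusted p = 0.0549 and 0.0636). Of the members for which polyadenylated messages are known, *Hist1h1c* fell, *Hist1h2bc* and *Hist3h2a* did not pass, and *Hist2h2be* and *Hist3h2ba* were not tested. The S-phase and G2 lists were counted beside the members and no difference between lists was tested.

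Outside cartilage, the tissue that the transgene driver is not made for, the sums of both conditions overlapped. The sum was 1172, 1825, 927 and 1146 CPM in *Pan-Cart-p21MOE* cells of S1 to S4 and 1383, 1886, 1074 and 1586 CPM in control cells. The means were 1267 ± 387 and 1482 ± 342 CPM (ratio 0.855), lower in 4 of 4 libraries, with a difference of the means smaller than the SD of either group. None of 48 tested members passed by edgeR, where none of 13209 genes (0%) fell and 0.00757% rose. DESeq2 also called none, nor did edgeR with the library as a block. At an unadjusted p under 0.05 there were 11 of 48 members by edgeR and 5.12% of all genes, and 43 of 48 values were negative (median -0.37).

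The most negative member outside was *Hist1h3b*, at 3.82 ± 0.64 against 6.99 ± 2.07 CPM (-0.87, adjusted p = 0.832 by edgeR). The most positive was *Hist3h2ba*, at 24.5 ± 0.53 against 17.7 ± 3.0 CPM (0.49, adjusted p = 0.702). *Hist1h2ap* and *Hist1h2ae* were at -0.03 and -0.25, *Hist1h1b* at -0.25, *Hist1h1c* at -0.39 and *Hist1h2bc* at -0.21. By cluster, the *Hist3* sum was higher in *Pan-Cart-p21MOE* in each library, at 46.3 ± 3.94 against 38.8 ± 5.88 CPM. The WPRE was 519, 76.0, 566 and 131 CPM in *Pan-Cart-p21MOE* cells outside cartilage against 442, 54.8, 407 and 58.8 CPM in controls.

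The difference of the p21 effects was tested directly, as the effect in chondrocytes minus that outside. None of 48 members passed by edgeR (0.00747% of 13389 genes were lower and 0.00747% higher), and 30 had an unadjusted p under 0.05, as did 6.83% of all genes. All 48 differences were negative, with a median of -1.18 beside 0.01 over all genes. A member could enter this test through control chondrocytes alone, so these counts describe the tested members only. *Hist2h2ac* was at -1.96 ± 0.39 (adjusted p = 0.299), *Hist1h2ap* at -1.30 ± 0.29 (adjusted p = 0.329) and *Hist2h2be*, the most negative, at -2.97 ± 0.71 (adjusted p = 0.330). *Hist2h2be* had 30, 20, 7 and 26 UMIs in control chondrocytes of S1 to S4. It had 4, 0, 8 and 17 UMIs in *Pan-Cart-p21MOE* chondrocytes and 4, 3, 6 and 4 in control cells outside. *Hist1h2bc* had a difference of -0.20 ± 0.33 (adjusted p = 0.970). DESeq2 called 1 member, *Hist1h2ap*. On simulated counts this edgeR comparison found 45% of log2 changes of 1 and 81% of log2 changes of 2.

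In proliferative-like chondrocytes 4 of 26 tested members fell and none rose, where 0.103% of 9678 genes fell and 0.0517% rose. These cells were named from markers, and their division was not measured. A cluster with 255 of them had no marker of its type among its leading genes. *Hist1h1b* was at 81.5, 57.2, 77.3 and 65.2 CPM in *Pan-Cart-p21MOE* and 258, 149, 229 and 298 CPM in control cells (-1.72 ± 0.20, adjusted p = 0.0043 by edgeR). *Hist2h2ac* was at 2.01, 3.36, 3.60 and 5.29 against 40.3, 9.13, 23.6 and 35.3 CPM (-2.72 ± 0.46, adjusted p = 0.040), the lowest value of the 26. For both, no value of *Pan-Cart-p21MOE* reached the control range. *Hist1h2ab* fell from 112 ± 68.9 to 25.7 ± 9.0 CPM (-2.22, adjusted p = 0.0363) and *Hist1h4d* from 103 ± 48.0 to 33.6 ± 9.96 CPM (-1.61, adjusted p = 0.040). With the library as a block *Hist1h1b* and *Hist2h2ac* were called. The count was 1 without S1, 1 without S4, and 0 without *Pan-Cart-p21MOE* S3 or S4. It was 1 without *Pan-Cart-p21MOE* S1, control S1 or control S4, 2 without *Pan-Cart-p21MOE* S2 and 18 without control S3.

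Resting-like cells could be tested for 10 members and gave no call by edgeR or DESeq2 (0.0464% of 6463 genes fell and 0% rose). All 10 were negative, 5 at an unadjusted p under 0.05 beside 7.16% of all genes, with a median of -0.92. *Hist1h2ac* had the lowest value (-1.44 ± 0.60, adjusted p = 0.643), *Hist1h4i* the highest (-0.77 ± 0.43, adjusted p = 0.739), and *Hist1h2bc* was at -1.05. S1 stood against the other libraries: its 15 *Pan-Cart-p21MOE* resting cells summed to 3197 CPM and its 12 control cells to 898 CPM, whereas S2, S3 and S4 gave 1064, 865 and 926 against 2078, 4191 and 3351 CPM. Without S1, 4 of 16 members were called (*Hist1h2ac*, *Hist1h2ae*, *Hist1h2an* and *Hist1h2ap*, median -1.66), and without control S1 alone *Hist1h2an*.

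Cell types were named from markers, and cycling was not measured in any of them. The summed level in control cells was 2901 CPM in proliferative-like, 2702 in resting-like and 685 in hypertrophic-like chondrocytes. Outside cartilage it was 2145 CPM in interzone- or articular-like, 1606 in tenocyte-like, 1310 in osteoprogenitor-like and 1256 in perichondrium- or groove of Ranvier-like cells. In *Pan-Cart-p21MOE* cells the levels were 912, 1244 and 497 CPM in proliferative-, resting- and hypertrophic-like chondrocytes. Those of interzone-, tenocyte-, osteoprogenitor- and perichondrium-like cells were 1159, 1757, 911 and 1083 CPM. Muscle-like cells were at 1218 CPM against 3664 CPM in 6 control cells, and immune-like cells at 2157 CPM in 42 cells, all of S4, against 1749 CPM in 3.

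**Figure D4:**
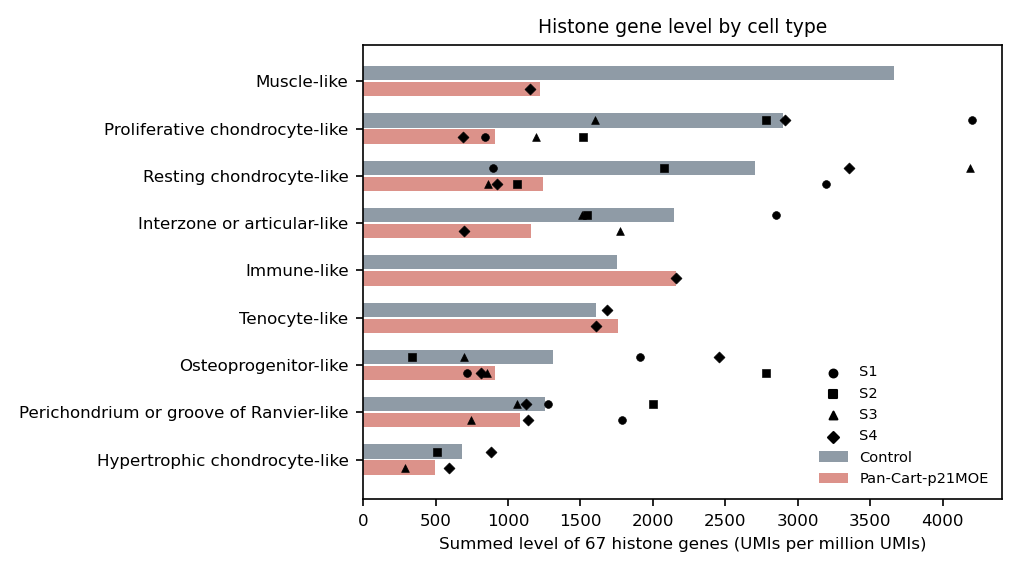
Summed level of the 67 histone genes (CPM, linear axis from 0) by cell type and condition, pooled over libraries (bars), with each library of at least 10 cells of that type as a point. Proliferative- and resting-like chondrocytes differ most between conditions among types with over 50 cells each, and single libraries spread widely in small types.

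The order of these types is a description, since libraries differed by as much as types. Osteoprogenitor-like control cells ranged from 334 to 2459 CPM over libraries, and the p21 values from 714 to 2780 CPM. Neighbours such as osteoprogenitor- and perichondrium-like cells therefore do not differ beyond their spread, and hypertrophic-like control cells were at 511 CPM in S2 and 881 CPM in S4, the libraries with over 10 of them.

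Histone message was concentrated in few cells. The tenth of chondrocytes with the most held 66.0% to 90.0% of the histone UMIs of a library and condition. To compare cells at equal depth, each was thinned to 5000 UMIs, which left out 23 of 484 *Pan-Cart-p21MOE* and 15 of 283 control chondrocytes. At least 5 histone UMIs were found in 13.6%, 15.6%, 15.1% and 12.9% of *Pan-Cart-p21MOE* and 19.1%, 31.3%, 23.6% and 29.1% of control chondrocytes of S1 to S4. The means were 14.3 ± 1.28% and 25.8 ± 5.46% (n = 4 each), a difference of -11.5 percentage points with no overlap. Without thinning, the shares were 59.5% to 71.0% and 66.1% to 86.5%. Over all libraries the histone-high cells held 21.5 histone UMIs of 5000 in *Pan-Cart-p21MOE* and 31.2 in control chondrocytes.

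Such a share has a background, for which hypertrophic-like cells were used. They were named from markers, their exit from the cycle was not measured, and they are also counted in the chondrocyte share. Hypertrophic-like cells, at a median depth of 14753 and 20304 UMIs against 25678 and 24659 in all chondrocytes, gave 28.8% (17.1 to 43.1%, exact binomial 95% interval, counting error only) of 52 *Pan-Cart-p21MOE* and 14.3% (4.03 to 32.7%) of 28 control cells. The *Pan-Cart-p21MOE* chondrocyte share (14.3%) lay below its hypertrophic-like interval and the control share (25.8%) inside its own. Neither is read as a share of cycling cells. The histone-high hypertrophic-like cells held 7.87 and 8.75 UMIs on average. Outside cartilage the shares were 25.6 ± 6.74% and 23.8 ± 4.91%. Barcodes from 500 to under 1000 UMIs, which were not kept, held 2347, 4465, 2192 and 2563 CPM of the members in S1 to S4, more than the 1506, 2007, 1098 and 1304 CPM of kept cells, and the part of free RNA in the shares was not tested.

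The histone message was then compared between cells with many and few UMIs of other S-phase genes. Cells with over 15 UMIs of the S-phase list, of 5000, made up 25.6% of *Pan-Cart-p21MOE* and 27.2% of control chondrocytes. The limit of 15 was an upper percentile of this count over all thinned cells, so the overall share was fixed by that choice. Whether the shares of the conditions differed was not tested. In the cells over the limit the mean was 15.1, 9.27, 7.54 and 7.75 histone UMIs in *Pan-Cart-p21MOE* (118 cells) of S1 to S4. It was 27.9, 20.3, 21.5 and 37.7 in control chondrocytes (73 cells). The highest *Pan-Cart-p21MOE* library lay below the lowest control library. In the other chondrocytes the pooled means were 2.62 and 3.04. Outside cartilage the S-phase-high cells held 11 and 11.5 histone UMIs. The chondrocyte means rest on 11 to 55 cells per library in *Pan-Cart-p21MOE* and 15 to 23 in control, and 49 and 29 cells lay within 2 UMIs of the limit. A count of S-phase genes gives a range and no phase.

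**Figure D5:**
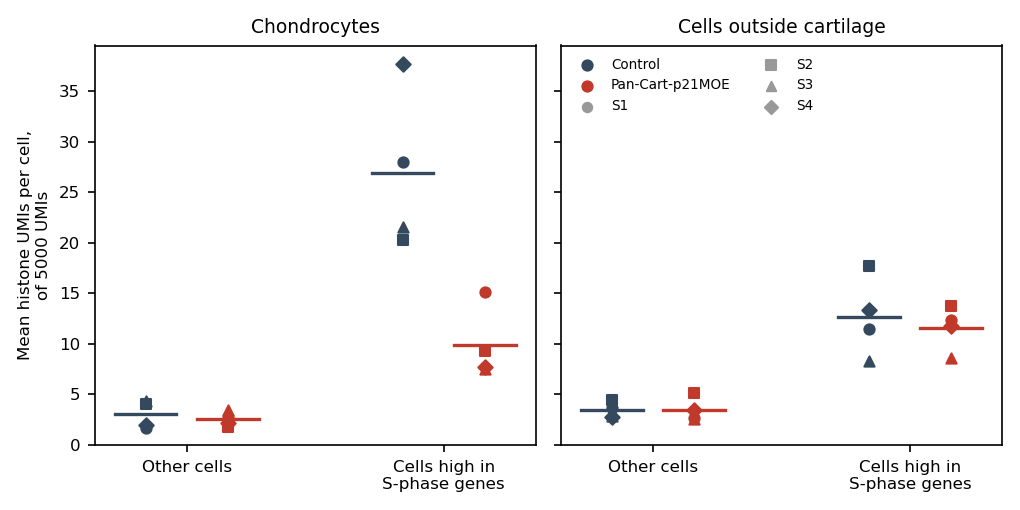
Mean histone UMIs per cell, of 5000 UMIs, in cells with over 15 UMIs of S-phase genes and in all other cells, by library (marker shape) and condition (colour), with the mean of 4 libraries as a bar. Among chondrocytes high in S-phase genes, Pan-Cart-p21MOE libraries lie at 7.54 to 15.1 and control libraries at 20.3 to 37.7.

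The sorted fractions were compared next, since tdT+ cells descend from *Gli1*-expressing cells. In chondrocytes none of 37 members passed by edgeR between tdT+ and tdT- (0.0182% of 11017 genes were lower and 0.00908% higher in tdT+). The median was 0.39, 9 members had an unadjusted p under 0.05 beside 4.9% of all genes, and DESeq2 called *Hist1h3c*. *Hist1h3c* had the highest value, at 48.2 ± 31.2 CPM in tdT+ and 22.1 ± 15.4 CPM in tdT- (1.11 ± 0.24, adjusted p = 0.313), and *Hist1h2ap* the lowest (-0.17 ± 0.32, adjusted p = 1.000).

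Outside cartilage *Hist1h2ae* was lower in tdT+ cells, where 1.04% of 13209 genes were lower and 0.681% higher. It was at 222 ± 17.3 CPM in tdT+ and 335 ± 57.9 CPM in tdT- (-0.57 ± 0.10, adjusted p = 0.0169 by edgeR), with ranges of 197 to 237 and 256 to 384 CPM that did not overlap. It was not called without control S1 or control S3. *Hist1h2ap* was at 222 ± 63.3 and 463 ± 198 CPM (-1.05 ± 0.30, adjusted p = 0.127). With the embryo pool as a block, both *Hist1h2ae* and *Hist1h2ap* were called. The highest value of the 48 was that of *Hist2h4* (0.56 ± 0.52). In chondrocytes, the p21 effect in tdT+ minus that in tdT- passed for none of 45 members and for 0% of 11889 genes, by edgeR or DESeq2, with 2 of 45 members and 2.64% of all genes at an unadjusted p under 0.05. On simulated counts this edgeR comparison found 7% of log2 changes of 1 and 53% of log2 changes of 2, so a difference could be missed. *Hist1h1t* had the lowest difference (-2.06 ± 1.61) and *Hist1h2ak* the highest (1.12 ± 0.64).

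Control chondrocytes and control cells outside cartilage also differed in the level of many members. The 67 members summed to 2644 ± 556 CPM in control chondrocytes and 1482 ± 342 CPM in control cells outside. The values below are levels, and whether the members differed in their share of this sum was not tested. Of 48 tested members 24 were higher and 2 lower in chondrocytes, where 21% of 13389 genes were higher and 19.1% lower, so the share of higher members stood above the background and that of lower ones below it. *Hist2h2be*, an H2b gene with a known polyadenylated message, had the highest value, at 11.6 ± 7.84 against 1.31 ± 0.30 CPM (3.02 ± 0.48, adjusted p = 0.00052 by edgeR). Its value rested on few UMIs, 30, 20, 7 and 26 in control chondrocytes of S1 to S4 and 4, 3, 6 and 4 outside. *Hist1h2ac* was at 42.6 ± 6.31 against 12 ± 3.02 CPM and *Hist1h2bc*, its head-to-head neighbour, at 169 ± 51.4 against 51.8 ± 13.8 CPM (1.85 and 1.72). *Hist1h2ap*, *Hist1h1a*, *Hist1h2ae* and *Hist1h1b* were higher, by 1.35, 1.28, 1.13 and 0.72 on the log2 scale.

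*Hist3h2ba* ran the other way. It was at 3.87 ± 4.08 CPM in control chondrocytes and 16.9 ± 2.80 CPM outside (-2.36 ± 0.46, adjusted p = 0.0015 by edgeR), and *Hist1h2ag* was lower too (-0.63, adjusted p = 0.0245). *Hist3h2a*, next to *Hist3h2ba* on chromosome 11, was at 17.1 ± 6.30 and 20.2 ± 6.56 CPM, a difference within its spread (-0.26). The other members called higher were *Hist1h1d*, *Hist1h2ab*, *Hist1h2ak*, *Hist1h2an*, *Hist1h2be*, *Hist1h2bh*, *Hist1h2bj*, *Hist1h2bn*, *Hist1h2bp*, *Hist1h3a*, *Hist1h3d*, *Hist1h3e*, *Hist1h3f*, *Hist2h2aa1*, *Hist2h2ac*, *Hist2h4* and *Hist4h4*, between 0.84 and 2.01. Replacement histone genes had 5 of 11 lower and 1 higher in chondrocytes.

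Neighbours in the genome did not always share the size of the change under p21. Both genes of a head-to-head pair were tested in chondrocytes in 4 cases. *Hist1h2ak* and *Hist1h2bn* were at -1.70 and -1.81, and *Hist1h2ag* and *Hist1h2bj* at -0.83 and -1.58. *Hist1h2ae* and *Hist1h2bg*, which share the upstream stretch printed above, were at -1.43 and -2.49, and *Hist1h2ac* and *Hist1h2bc* at -0.80 and -0.34. The last pair held 2 of the 5 values nearest to 0.

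The tested members were last grouped by sequence features that their choice did not use. Members with under 100 bases behind the loop had 7 of 11 called (median -1.67), those with 100 or more 8 of 16 (-1.44), and those without a loop in the annotated transcript 9 of 10 (-1.62). Most annotated transcripts of the last group end at or next to the stop codon, so a loop could not be seen in them. Over all genes tested in chondrocytes, 0.49% fell. Members with over 50% of windows shared had 7 of 10 called (-1.62) and the others 17 of 27 (-1.58). These are counts beside each other, for which no test was made.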

How the data were processed

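The authors aligned reads of 4 libraries with Cell Ranger 7.2.0 to GRCm38 with added transgenes, per the labels and methods, and deposited raw UMI counts for each gene in each barcode. The study's ambient-RNA and doublet steps were not rerun. Barcodes under 1000 UMIs or 500 genes, or over 10% mitochondrial, were dropped. Sex (at least 2 UMIs of *Xist* or Y-linked genes, 80% of 1 side) gave the condition, 277 cells with both were left out, and so were the top 5% of Scrublet scores per library. Kept cells were clustered in Python 3.11.15 (scanpy 1.11.5, leidenalg 0.10.2) at a resolution of 1, and clusters were named from marker lists.

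Counts were summed per library, condition and class and tested in R 4.3.3 with edgeR 4.0.16 (filterByExpr, TMM, quasi-likelihood test, sorted fraction or condition as covariate, Benjamini-Hochberg over all genes tested). DESeq2 1.42.0 was an alternative. Each edgeR comparison was also run on simulated counts, in which 5.66% to 11.2% of the calls at an adjusted p of 0.05 were false (7.47% for p21 in chondrocytes). The chondrocyte sums held 801116 to 7210406 UMIs, so members with few UMIs could not be tested in small classes. Deviations of *Pan-Cart-p21MOE* and control cells of a library correlated at r of -0.062 to 0.064 across genes in chondrocytes and 0.0626 to 0.211 outside. Since not every value was over 0.1, the library was not taken to pair them. The sorted fractions of a pool come from the same embryos and correlated at 0.0998 to 0.392 (chondrocytes) and 0.0512 to 0.325 (outside), not all over 0.1 either. The main tests did not pair the fractions, and the embryo pool as a block was an alternative.

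The members, marker lists and gene lists were chosen with earlier results of these data known. Named were the 3 most abundant members of each class, every member past an adjusted p of 0.05, the highest and lowest fold change of each comparison, and the polyadenylated and testis-type members. Alternatives changed scaling, filters, cells, clustering, covariates and samples, and leaving out whole libraries, hypertrophic or immune cells, or joining the unnamed clusters was chosen after seeing the data.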

Additional observations from a re-analysis of the deposited data

Results flagged for a closer look

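In 88 groups of 4 libraries, 7 had 1 library far from the other 3 (gap to the nearest over the whole range, past the critical value of Dixon's test), and chance gives about 1 in 20. In chondrocytes, H3 members summed to 280.1 CPM in control S1 against 115 to 140.5 in the others (gap over range 0.846), and *Hist1h3e* was at 63.08 CPM there (0.863). Also in chondrocytes, *Hist1h4i* was high in control S2 (35.44 CPM, 0.891), and among *Pan-Cart-p21MOE* libraries *Hist1h3f* was high in S1 (7.28 CPM, 0.935), *Hist1h2be* was at 0 in S2 (0.866) and *Hist1h2bn* low in S4 (3.62 CPM, 0.836). Outside cartilage, H4 members summed to 169.3 CPM in *Pan-Cart-p21MOE* S2 against 115.2 to 121.7 in the others (0.881).

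Barcodes under 1000 UMIs, which entered no comparison, held 2346.6, 4465, 2192.4 and 2563.2 CPM of the members in S1 to S4, above the 1506.5, 2007.3, 1097.8 and 1304.4 of kept cells. *Hist1h2ae* had 716, 1430, 699 and 849 CPM in them against 295, 391, 232 and 296 CPM in kept cells, and made up 30.5% to 33.1% of their member UMIs against 19.5% to 22.7%.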

How the results depend on the processing

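Counts of calls moved with the filters, cells and samples used. In chondrocytes the 24 calls became 38 with no filter on low counts, 12 with high Scrublet scores kept, 8 with fractions of a pool summed, 15 without the fraction term, 15 with the unnamed clusters joined, 26 with DESeq2, and 4 to 21 when 1 pseudobulk or library was left out. Outside cartilage they became 4 without the filter (*Hist1h3c*, *Hist1h4c*, *Hist1h4d* and *Hist1h4h*). In resting-like cells they became 10 without the filter and 0 to 4 with a sample or library left out. In proliferative-like cells the 4 calls became 16 with DESeq2, 30 without the filter, 20 with high Scrublet scores, 0 at resolution 0.5, 10 with fractions summed, 2 (*Hist1h1b* and *Hist2h2ac*) without the fraction term and 0 to 18 in leave-outs. The difference of effects gave 1 with DESeq2 (*Hist1h2ap*) and 16 without the filter. Between fractions, chondrocytes gave 1 with DESeq2 (*Hist1h3c*) and 3 without the filter (*Hist1h2ab*, *Hist1h3c* and *Hist1h4d*), and cells outside gave 4 without it (*Hist1h2ab*, *Hist1h2ae*, *Hist1h2ap* and *Hist1h2bb*), 0 with high Scrublet scores and 0 to 1 in leave-outs. Where a cause is not evident from the setting itself, it was not tested.

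With the library as a replicate block, 21 members were called in chondrocytes, 2 in proliferative-like cells and 0 in resting-like cells and outside. With the embryo pool as a block, which pairs the fractions, 0 were called in chondrocytes and 2 outside (*Hist1h2ae* and *Hist1h2ap*).

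The sign of a named log2 value turned for *Hist1h2bc*, *Hist3h2a*, *Hist1h2ap* and *Hist2h2be*. Over leave-outs *Hist1h2bc* ran from -0.71 to 0.028 in chondrocytes (highest without S1) and from -0.53 to 0.083 in the difference of effects (highest without control S1), where it was 0.16 with every other cluster counted as outside. Its difference between fractions ran from -1.51 to 0.18, with 0.15 without *Pan-Cart-p21MOE* S2 and 0.46 without hypertrophic cells. *Hist3h2a* outside ran from -0.13 to 0.31, with -0.077 and -0.021 without *Pan-Cart-p21MOE* or control S4, and -0.0034 with fractions summed. *Hist1h2ap* between fractions in chondrocytes ran from -0.44 to 0.13, with 0.033 without control S3. *Hist2h2be* in the difference between fractions ran from -1.37 to 4.53, with 0.95 without control S1 and 0.43 at resolution 0.5. The share of histone-high chondrocytes kept a difference of -13.7 to -8.51 points under all alternatives.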
